A study of Rattus norvegicus with 179 samples.

Results

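The genes described here were expressed at nearly the same level in 5 tissues of aged rats. Counts of each library were divided by its total and multiplied by 1000000 (CPM), and the median was taken over the libraries of each tissue. A gene was taken as even when all 5 medians were at least 50 CPM and the highest was at most 1.5 times the lowest. Of 32545 gene IDs in the table, 850 had all 5 medians at or above 50 CPM, and 36 of these, 4.24%, were even. The members were thus selected on their tissue medians, and their evenness between tissues is a description. Their spread between libraries and their differences between groups were not used for the choice. The other 814 broadly expressed genes are the set with which they are compared.

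Every cell needs the products of some genes, such as those for protein synthesis, protein turnover, mRNA processing and vesicle transport, and genes of this kind are often called housekeeping genes. Genes with steady transcript levels are used as references in quantitative PCR and to scale measurements between samples. CPM is a share of a library, however, so a gene keeps the same CPM in 2 tissues only if its share of all transcripts counted is the same in both. The IDs of the table came without gene symbols, and the reference table paired 0 of them with a name. Genes are therefore given by ID, with no role and no sequence.

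The prefrontal cortex (PFC), hippocampus, liver, colon and tibialis anterior muscle came from 36 male F344BN rats, which were 24 mo old when obtained. The 6 groups were formed by 3 treatments, given by gavage 3 times/wk over 12 wk, and by activity. LPAEx and LPASed rats received a Lactobacillus paracasei that carries and expresses Ang (1-7), LPEx and LPSed rats the unmodified bacterium, and CONEx and CONSed rats buffer. Exercised rats (Ex) ran on a treadmill 5 days/wk at 12 cm/s, and sedentary rats (Sed) were placed on a treadmill that was turned off. Each group had 6 libraries in each tissue, except the liver of LPEx with 5. All groups were aged males of the same strain.

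The rule used 36 libraries of each tissue except liver, with 33, whose totals lay between 13203828 and 27563733 counts. The lowest count of a member in a library was 257 and the median 1557.5, at which counting alone gives a coefficient of variation (CV) of 2.53%. Together the 36 genes took between 0.326% and 0.602% of a library. The libraries of liver LPAEx rat 7 and liver LPEx rat 4 were left out. Tissue-enriched genes were taken as those whose median reached 20 CPM and was 10 or more times that of each other tissue. The liver-enriched genes took 0.390% of the counts of LPAEx rat 7 and 0.0909% of those of LPEx rat 4. In the 33 other liver libraries the same genes took between 40.8% and 50.3%. Colon genes took 10.4% in LPAEx rat 7, against 5.86% to 14.9% in colon libraries, and muscle genes took 36.5% in LPEx rat 4, against 33.7% to 44.8% in muscle libraries. These gene sets were found in the same libraries, since markers known by symbol could not be looked up.

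The 36 genes spanned ratios of the highest to the lowest tissue median between 1.19 and 1.49, with a median of 1.37. The ratio was 3.00 at the median of the 814 other broadly expressed genes and reached 194. ENSRNOG00000037505 had the lowest ratio, 1.19, with medians of 62.5 CPM in PFC, 62.4 in hippocampus, 54.2 in liver, 54.8 in colon and 52.3 in muscle. ENSRNOG00000037580 had a ratio of 1.22 and medians between 80.6 CPM in muscle and 98.3 CPM in liver. For ENSRNOG00000009535 the ratio was also 1.22, with medians between 57.0 CPM in liver and 69.8 CPM in muscle. ENSRNOG00000011463 and ENSRNOG00000046502 both had a ratio of 1.23, the first with a highest median of 69.1 CPM and the second with one of 148.7 CPM.

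No single tissue stood at the top of the even genes. Liver, hippocampus and muscle each held the highest median of 9 members, colon that of 8 and PFC that of 1. The lowest median was in muscle for 11, in liver for 10, in colon for 6, in PFC for 5 and in hippocampus for 4. Of the 814 other genes, 355 were lowest in liver and 286 highest in colon. The SD of a gene's 5 log2 medians was 0.18 at the median of the even genes, below the pooled SD of 0.23 between libraries of 1 tissue. For 28 of the 36, or 77.8%, tissues thus lay closer together than libraries of the same tissue did, against 4.30% of the other broadly expressed genes, a difference that the choice of members fixes. In bulk tissue, fewer cells that express a gene and less of its RNA per cell cannot be told apart.

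Next to the ratio threshold, ENSRNOG00000005804, ENSRNOG00000025459 and ENSRNOG00000019743 lay just inside at 1.486, 1.491 and 1.494, and ENSRNOG00000013493, ENSRNOG00000000923 and ENSRNOG00000018818 just outside at 1.504, 1.513 and 1.515. Next to the level threshold, the lowest medians of ENSRNOG00000031544, ENSRNOG00000017396 and ENSRNOG00000037505 were 51.5, 51.8 and 52.3 CPM, and those of ENSRNOG00000051286, ENSRNOG00000017904 and ENSRNOG00000007701, which had even ratios but were not taken, were 49.4, 48.7 and 47.5 CPM. The edges of the group are therefore not gaps in the data.

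The evenness belonged to the scale on which it was found. When libraries were scaled over all tissues by trimmed means of M values (TMM), a method that sets the bulk of genes equal rather than the totals, 64 genes met the same rule and 0 of the 36 were among them. On that scale the members' ratio had a median of 2.40 and ranged from 1.54 to 3.00. Muscle then held the highest median of 25 members and liver that of 11, and the lowest lay in colon for 13, in hippocampus for 12 and in PFC for 11. The shift between the scales over the 850 broadly expressed genes was 0.68 in muscle and 0.51 in liver, and -0.34 in PFC, -0.47 in hippocampus and -0.35 in colon (log2, median). By relative log expression (RLE), 87 genes were even, 1 of them a member.

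The tissues with positive shifts were those in which a few genes took the most counts. The 10 highest genes held a median of 28.2% of the counts in muscle and 24.6% in liver, against 18.0% in colon, 13.7% in PFC and 10.8% in hippocampus. Colon held a larger share than PFC at nearly the same shift (-0.35 and -0.34). With the 10 highest genes of each tissue removed from the totals, 50 genes were even and 21 of the 36 stayed among them. Whether these shares account for the shifts was not tested. Relative to the bulk of genes the members were thus higher in muscle and liver, and relative to the total they were level. Both follow from the choice: genes chosen to be level on the total move with the shift between the scales.

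**Figure D1:**
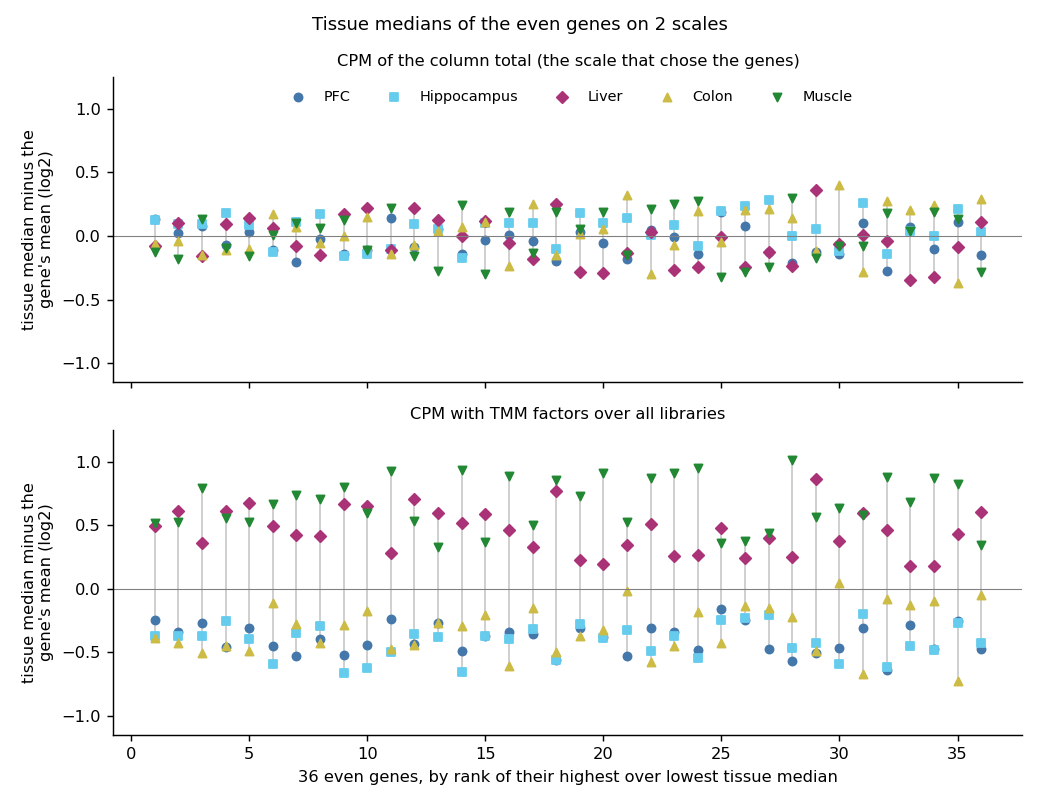
Each of the 36 even genes is a position on the x axis, ordered by its ratio, and each point is a tissue median minus the mean of the gene's 5 medians (log2), on the column total (top) and with TMM factors (bottom). The points lie in a narrow mixed band at the top, where ratios are 1.19 to 1.49, and split into muscle and liver above and the other tissues below at the bottom, where ratios are 1.54 to 3.00.

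The same rule was applied within each of the 6 groups, with 4 to 6 libraries per tissue. It found 40 even genes in LPAEx, 34 in LPASed, 32 in LPEx, 30 in LPSed, 40 in CONEx and 28 in CONSed. Of the 36 members, 21 were even in LPAEx, 26 in LPASed, 22 in LPEx, 25 in LPSed, 27 in CONEx and 21 in CONSed, and 7 were even in all 6 groups. Among these 7 were ENSRNOG00000046502, ENSRNOG00000037580 and ENSRNOG00000001488. When the genes were chosen in exercised rats only, 38 were even, and 26 of these kept a ratio of at most 1.5 in the sedentary rats, which had no part in that choice. Chosen in sedentary rats only, 31 were even, and 26 of these had a ratio of at most 1.5 in exercised rats, with a median of 1.40 and a highest value of 1.70. Most genes chosen in 1 set of rats were thus within the ratio in the other, and the highest ratio in sedentary rats was 1.77.

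The spread between rats was close to that of other broadly expressed genes. The CV of CPM over the libraries of a tissue had a median over the members of 15.2% in PFC, 13.7% in hippocampus, 13.9% in liver, 19.3% in colon and 14.9% in muscle. For the other broadly expressed genes it was 15.7%, 15.0%, 14.2%, 18.4% and 16.3% in the same tissues. The CV was under 20% in all 5 tissues for 17 of the 36 members, or 47.2%, and for 36.4% of the other genes. With libraries scaled by TMM within each tissue these shares were 41.7% and 42.6%. The biological CV that edgeR estimates, given as a fraction, had a median of 0.151 over the members in PFC, 0.160 over the other broadly expressed genes and 0.282 over all genes tested there. Members were also below the other broadly expressed genes in hippocampus (0.159 and 0.171) and muscle (0.155 and 0.160). They were above them in liver (0.167 and 0.159) and colon (0.186 and 0.184). Within a tissue, 20 members stayed within 2-fold over all libraries in PFC, 24 in hippocampus, 27 in liver, 7 in colon and 13 in muscle.

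**Figure D2:**
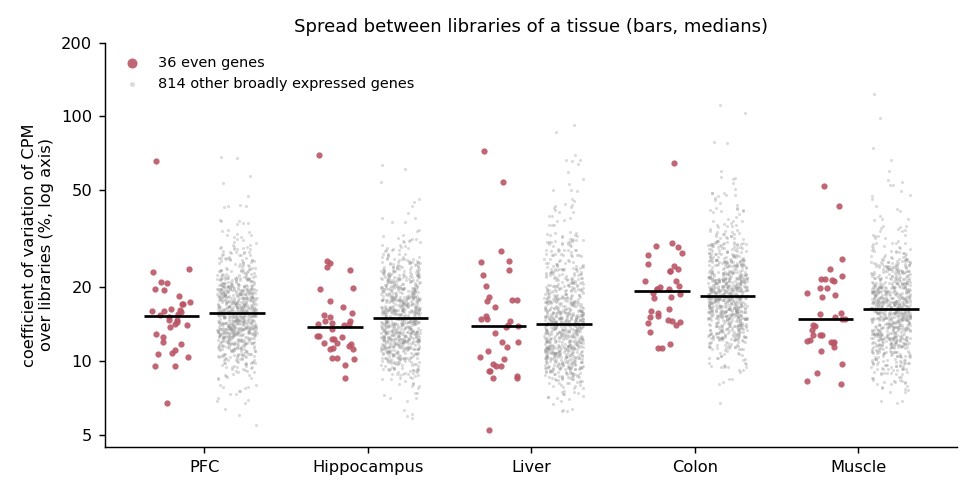
Each point is a gene, with its CV over the libraries of a tissue on a log axis in percent, for the 36 even genes (left of each pair) and the 814 other broadly expressed genes (right), and bars are medians. The medians lie close together in every tissue, between 13.7% and 19.3% for the even genes and between 14.2% and 18.4% for the others, and a few even genes stand above 50%.

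Across all libraries the highest CPM of a member was a median of 3.14 times its lowest, against 7.39 times for the other broadly expressed genes. This range includes the differences between tissue medians that the rule limits, so the choice of members sets part of that gap. The range within 3-fold was kept by 15 members, within 4-fold by 24 and within 5-fold by 27. ENSRNOG00000046502 had the smallest range, 2.09-fold, between 88.4 CPM in colon LPSed rat 5 and 185.0 CPM in colon LPASed rat 5. In PFC it lay between 126.1 and 163.9 CPM in exercised rats (median 138.1, n = 18), against 113.2 to 154.3 CPM in sedentary rats (median 138.3, n = 18), so the 2 sets overlapped almost fully. Ranked by their largest CV in any tissue, the lowest members were ENSRNOG00000011632 at 13.2%, ENSRNOG00000005804 at 15.2% and ENSRNOG00000001488 at 15.2%. The highest were ENSRNOG00000021206 at 72.4% in liver, ENSRNOG00000004252 at 69.8% in hippocampus and ENSRNOG00000031544 at 43.2% in muscle.

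ENSRNOG00000004252 joined even medians with wide libraries. Its tissue medians lay between 53.8 CPM in colon and 69.1 CPM in muscle, a ratio of 1.28, but its CV was between 52.0% and 69.8% in every tissue. Single libraries ranged from 17.6 CPM in liver LPAEx rat 4 to 206.7 CPM in hippocampus CONSed rat 4, an 11.7-fold range from counts of 294 to 3809. In hippocampus it lay between 24.6 and 185.5 CPM in exercised rats (median 45.9, n = 18), against 29.1 to 206.7 CPM in sedentary rats (median 88.6, n = 18). High and low libraries thus occurred in both sets, and edgeR gave an exercise difference there of -0.44 (log2, SE 0.31, FDR = 0.979). Of its values, 111 lay over 1.5-fold from their tissue median, out of 300 such values among all 6372 of the 36 genes.

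No relation between tissues of the same rat passed the test for this gene. Over the 10 pairs of tissues, with 33 to 36 rats each, Pearson's r of log2 CPM was between -0.31 and 0.22 and Spearman's rho between -0.30 and 0.23 (permutation tests with 100000 resamples, adjusted p at least 0.483 for r and 0.572 for rho over the 10 pairs). Without the 2 rats farthest from the median of the first tissue, r lay between -0.29 and 0.17. Among 9628 genes with medians of at least 1 CPM in every tissue, the gene most like it in all 5 tissues had an r over libraries between 0.27 and 0.35. In muscle its 6 CONEx libraries were all high, between 97.8 and 135.2 CPM, against 56.4 to 117.1 CPM in CONSed, but the difference among the 6 groups had an unadjusted p of 0.0150 and an FDR of 0.613 (edgeR). ENSRNOG00000004252 also gave the highest ratio between tissues in 5 of the 6 groups, from 3.01 to 3.58.

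**Figure D3:**
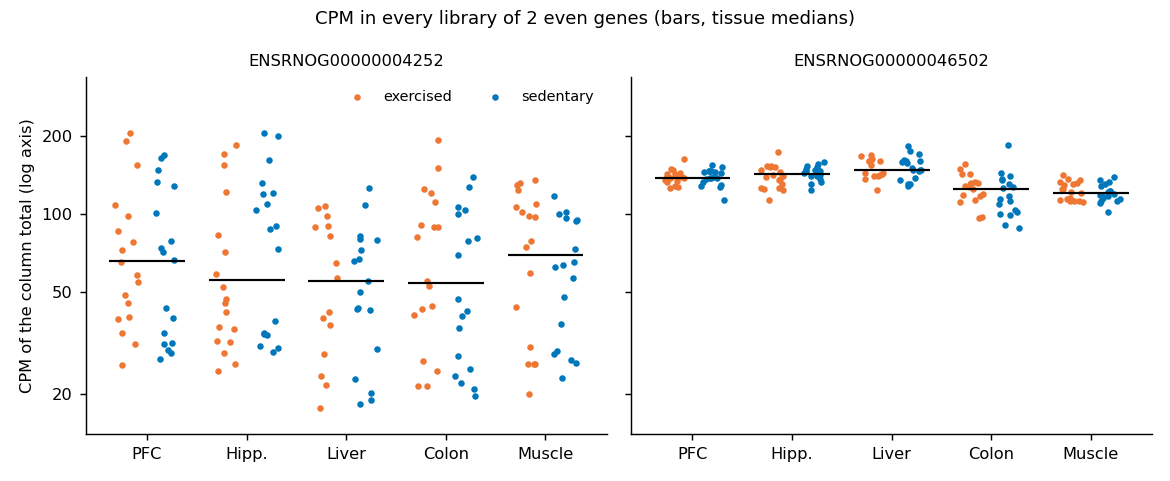
Each point is the CPM of a library (column total, log axis) in exercised rats (left) or sedentary rats (right) of each tissue, and bars are tissue medians. ENSRNOG00000004252 spreads over 17.6 to 206.7 CPM around medians of 53.8 to 69.1 CPM, and ENSRNOG00000046502 stays between 88.4 and 185.0 CPM.

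ENSRNOG00000021206 was wide in liver. Its CV was 72.4% there and between 14.1% and 27.6% in the other tissues. In exercised livers it lay between 32.6 and 303.1 CPM (median 62.6, n = 15), against 31.2 to 160.2 CPM in sedentary livers (median 80.8, n = 18). The sets overlapped over most of their range, with the highest values in exercised rats, and edgeR gave 0.61 on the log2 scale (SE 0.29, FDR = 0.631). In LPAEx livers the 5 libraries lay between 40.5 and 204.9 CPM (median 55.0), and in LPEx livers the 4 libraries between 54.4 and 296.2 CPM (median 227.6), a log2 fold change of -1.28 for LPAEx versus LPEx with an FDR of 0.580.

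The distance of single libraries from the medians of their tissue was small in most. Per library, a median of 35 of the 36 genes lay within 1.5-fold in each of the 5 tissues. Colon LPASed rat 5, muscle CONEx rat 11 and colon LPSed rat 5 stood apart, with median absolute distances of 0.55, 0.52 and 0.45 (log2), and within 1.5-fold in 19, 19 and 22 genes. Colon LPASed rat 5 held the highest value over all libraries of 10 members, muscle CONEx rat 11 the lowest of 9, and colon LPSed rat 5 the lowest of 8. Without these 3 libraries 35 genes were even, all of them members, and 21 members, or 58.3%, had a CV under 20% in all 5 tissues, against 44.8% of the other broadly expressed genes.

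The left-out libraries lay farther from the medians than most. Liver LPAEx rat 7 had 31 of the 36 genes within 1.5-fold of the colon medians and 22 within 1.5-fold of the liver medians. Liver LPEx rat 4 had 13 within 1.5-fold of the liver medians and 8 within 1.5-fold of the muscle medians, with distances of 0.73 and 0.84 (log2), although its muscle genes were at the level of muscle.

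**Figure D4:**
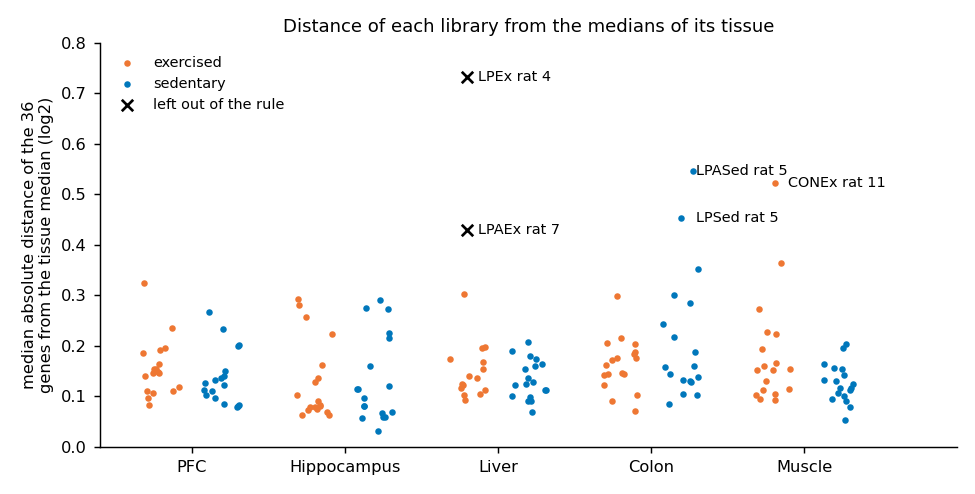
Each point is a library, with the median over the 36 even genes of the absolute log2 distance from the median of its tissue, in exercised rats (left) and sedentary rats (right), and crosses mark the 2 liver libraries that the rule left out. Most libraries lie under 0.3, colon LPASed rat 5, muscle CONEx rat 11 and colon LPSed rat 5 lie at 0.55, 0.52 and 0.45, and the crosses at 0.73 and 0.43.

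The geometric means of the 6 groups on the column total lay close together. The highest of these means of a member was a median of 1.21 times the lowest in PFC, 1.15 times in hippocampus, 1.12 times in liver, 1.14 times in colon and 1.2 times in muscle, against 1.24, 1.19, 1.15, 1.15 and 1.2 times for the other broadly expressed genes. The means were over 1.5-fold apart for 1 of the 36 members in PFC, 2 in hippocampus, 2 in liver, 1 in colon and 1 in muscle. Of the 814 other broadly expressed genes they were so for 58, 44, 26, 18 and 52 in the same order.

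Differences between groups were tested in each tissue with edgeR's quasi-likelihood F test over all genes, with libraries scaled by TMM within the tissue and an FDR under 0.10. All 36 members passed the filter on low counts in every tissue. In PFC, 9 of the 36 members, or 25.0%, were lower with exercise averaged over the 3 treatments and 0 were higher, against 5.58% of all 15766 genes that were lower and 5.16% that were higher. At an unadjusted p under 0.05 there were 12 members, against 3363 of all 15766 genes. DESeq2 called 10 members lower and 0 higher, and voom 14 lower and 2 higher. Shares of all genes called by DESeq2 and voom are not given here. The other broadly expressed genes behaved alike, with 205 of 814, or 25.2%, lower and 3.93% higher. The effects were small: log2 fold changes of the 36 ranged from -0.37 to 0.20 with a median of -0.06, against -0.08 for the other broadly expressed genes and 0.01 for all genes tested.

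ENSRNOG00000019908 had the smallest p. Scaled by TMM, it lay between 68.5 and 125.6 CPM in exercised PFC (median 93.6, n = 18), against 99.4 to 154.6 CPM in sedentary PFC (median 112.9, n = 18). The lower part of the exercised range held no sedentary library, while the upper parts overlapped. By edgeR its log2 fold change was -0.28 (SE 0.068, FDR = 0.0111), and it was called in all 36 fits that leave out 1 library (FDR at most 0.0219). ENSRNOG00000021206 fell as well, to between 52.5 and 109.4 CPM in exercised PFC (median 70.0), against 61.8 to 130.2 CPM in sedentary PFC (median 98.3), which is -0.37 on the log2 scale (SE 0.098, FDR = 0.0191). Both genes thus had lower medians in exercised PFC, with overlap between the sets. For ENSRNOG00000019908 the gap was smallest in buffer rats, with TMM medians of 107.1 CPM in CONEx and 113.4 in CONSed. They were 92.9 in LPEx and 110.5 in LPSed, and 87.1 in LPAEx and 118.3 in LPASed. On the column total, CONEx and CONSed were at 108.9 and 109.0 CPM. Whether the exercise difference depends on treatment was not tested. ENSRNOG00000009535 had a log2 fold change of -0.20 (FDR = 0.0523) and ENSRNOG00000046502 one of -0.14 (FDR = 0.0842), the second called in 16 of the 36 fits that leave out 1 library.

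Which members were called in PFC, and in which direction, depended on the scale. On the column total, the scale on which the genes are even, 7 members were higher with exercise and 1 was lower, against 21.1% of all genes higher and 1.8% lower. Of the other broadly expressed genes, 22.1% were higher and 10.1% lower. The median log2 fold change of the members was then 0.08, and that of all genes 0.16, so members stood below the bulk of genes on both scales. A change of scale moves all genes of a library alike, so the second scale adds no separate evidence for that gap. On the TMM scale the other broadly expressed genes stood below the bulk too, at -0.08. Of the 9 members that fell on the TMM scale, 8 were still below 0 on the column total and 1 was called, ENSRNOG00000021206, with a log2 fold change of -0.23 (FDR = 0.0645). ENSRNOG00000019908 was at -0.14 there (FDR = 0.109). Among those higher was ENSRNOG00000037505, the gene with the lowest ratio, at 49.3 to 99.2 CPM in exercised PFC (median 75.4, n = 18), against 39.7 to 79.4 CPM in sedentary PFC (median 56.1, n = 18), a log2 fold change of 0.35 (FDR = 0.0140). On the TMM scale its log2 fold change was 0.20 (FDR = 0.178). ENSRNOG00000046502 was at 0.0016 on the column total (FDR = 0.987).

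Measures of the whole library moved with exercise in PFC. The 10 highest genes held between 8.73% and 18.5% of the counts in exercised PFC (median 12.2%), against 10.8% to 23.3% in sedentary PFC (median 15.8%). TMM factors had a median of 1.05 in exercised PFC and 0.946 in sedentary PFC. When this share entered the model beside the groups, edgeR called 0 members and 2 of all genes, and 7 members had an unadjusted p under 0.05. The median log2 fold change of the members in that fit was -0.09, against -0.06 without the share. Since the share itself differed between exercised and sedentary PFC, this fit cannot tell it apart from exercise. Whether the share accounts for the calls was not tested.

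**Figure D5:**
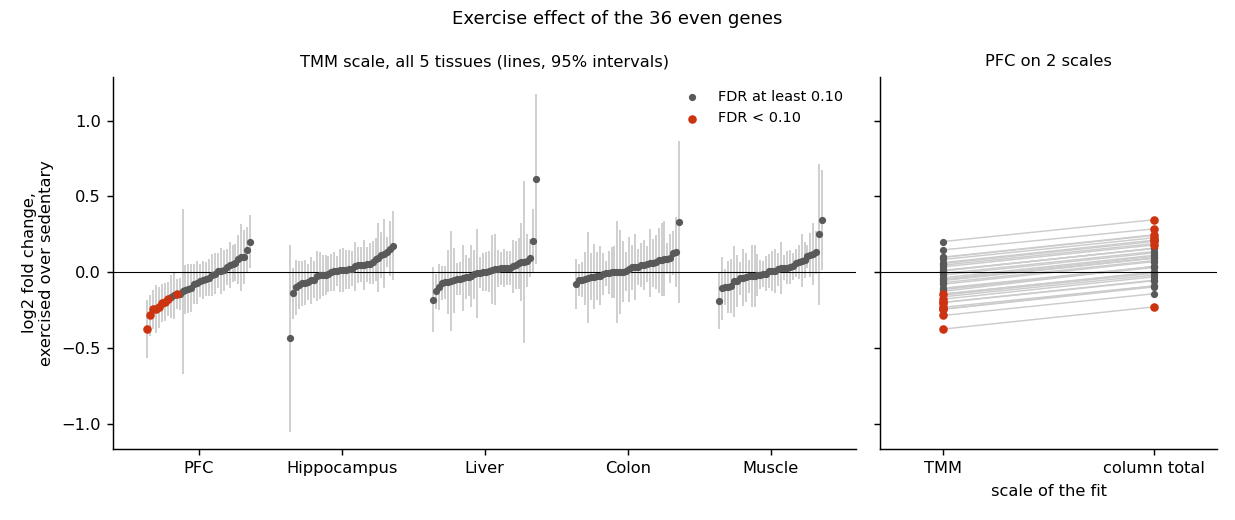
Points are the log2 fold changes of the 36 even genes, exercised over sedentary, in each tissue on the TMM scale with 95% intervals (left) and in PFC on the TMM scale and on the column total joined by gene (right), with calls at FDR < 0.10 in red. The 9 calls on the TMM scale are all below 0, and on the column total 7 calls are above 0 and 1 is below.

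LPAEx was also compared with each of the other 5 groups in PFC. At an FDR under 0.10, 6 members were lower in LPAEx than in LPASed (4.66% of all genes lower), 3 were lower than in LPSed (3.2% of all genes lower) and 1 was lower than in CONSed (1.68% of all genes lower). These were 16.7%, 8.33% and 2.78% of the members, against 18.2%, 13.0% and 7.86% of the other broadly expressed genes. Against LPEx and CONEx 0 members were called, with 0 and 6 at an unadjusted p under 0.05. Of all 15766 genes, 1153 and 1579 were at that p. DESeq2 called 0 members against LPEx and 1 against CONEx, and voom 0 against both. These comparisons share the LPAEx libraries. ENSRNOG00000019908 was called against both LPASed and CONSed. Scaled by TMM, it lay between 68.5 and 104.5 CPM in LPAEx (median 87.1, n = 6), against 104.4 to 140.0 CPM in LPASed (median 118.3, n = 6), where the groups met at their edges, and edgeR gave a log2 fold change of -0.45 (SE 0.12, FDR = 0.0277). On the column total, 3 members were higher and 0 lower in LPAEx than in LPASed, against 16.3% of all genes higher and 1.48% lower. Against LPSed 5 were higher and 0 lower (12.1% and 1.31% of all genes), and against CONSed 2 were higher and 0 lower (8.19% and 0.52% of all genes). Of the other broadly expressed genes, 18.7%, 18.2% and 8.6% were higher in the same order, and 6.02%, 4.67% and 2.58% lower. At an unadjusted p under 0.05 on that scale, edgeR had 1 member lower against LPASed, 1 against LPSed and 0 against CONSed. DESeq2 and voom were not run on the column total. At the thresholds of the study, an FDR under 0.10 and an absolute log2 fold change over 1, 0 members were called in PFC (2.06% of all genes), and none had an absolute log2 fold change over 1. Over the 6 groups jointly, 1 member differed in PFC, ENSRNOG00000019908 (FDR = 0.0879, against 2.43% of all genes called). With an unadjusted p under 0.05 there were 10 members, against 2163 of all 15766 genes. At an FDR under 0.10 DESeq2 called 6 members and voom 5, and without 17 of the 36 libraries in turn edgeR called 0.

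In hippocampus, liver, colon and muscle, edgeR called 0 members for exercise in either direction. The share of all genes higher was 0, 0.0927, 0.0126 and 0.0232%, and the share lower 0, 0.057, 0.00629 and 0.0232%. At an unadjusted p under 0.05 there were 1, 2, 0 and 2 members. All genes at that p were 627 of 16113, 1080 of 14025, 700 of 15898 and 649 of 12952 in the same order. DESeq2 and voom also called 0 members. The median log2 fold change of the 36 was 0.01 in hippocampus, 0.00 in liver, 0.01 in colon and 0.01 in muscle. The 95% interval of the exercise effect lay within 1.5-fold in either direction for 35 members in PFC, 35 in hippocampus, 34 in liver, 35 in colon and 34 in muscle. Differences larger than that were thus outside the interval for most members, while smaller ones could have been missed.

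Among the 6 groups, 0 members were called in these 4 tissues by edgeR, where 0.242% of all genes were called in hippocampus, 0.863% in liver, 0.572% in colon and 0.108% in muscle. At an unadjusted p under 0.05 there were 1, 0, 0 and 4 members. All genes at that p were 944 of 16113, 1086 of 14025, 598 of 15898 and 803 of 12952 in the same order. Voom called 0 members in each tissue, and DESeq2 called 2 in muscle and 0 elsewhere. At the thresholds of the study, LPAEx differed from at least 1 other group in 0 members, against 0, 1.21, 0.0818 and 0.108% of all genes in hippocampus, liver, colon and muscle, and DESeq2 and voom called 0 as well. With an unadjusted p under 0.05 and an absolute log2 fold change over 1 there was 1 member in liver, ENSRNOG00000021206, and 1 in muscle, ENSRNOG00000004252. This count runs over 5 comparisons per tissue, and the share of all genes at these thresholds is not given here. The CVs of the 2 genes in those tissues, 72.4% and 52.0%, were the highest of the members.

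At an FDR under 0.10 with no threshold on the fold change, 2 members were lower in LPAEx than in CONEx muscle (0.293% of all genes lower). These were 5.56% of the members, against 0.737% of the other broadly expressed genes. ENSRNOG00000005804 lay, scaled by TMM, between 74.1 and 87.3 CPM in LPAEx (median 77.7, n = 6), against 82.5 to 103.0 CPM in CONEx (median 96.9, n = 6), and edgeR gave a log2 fold change of -0.26 (SE 0.066, FDR = 0.0882). ENSRNOG00000016227, named after its values were seen, lay between 58.0 and 70.6 CPM in LPAEx (median 61.7), against 70.7 to 85.5 CPM in CONEx (median 80.4), where the groups did not overlap, and its log2 fold change was -0.32 (SE 0.074, FDR = 0.0864). DESeq2 called both, and so did edgeR with RLE (FDR = 0.0864 and 0.0819). Voom called neither (FDR = 0.198 and 0.163), and edgeR with no filter on low counts called neither (FDR = 0.179 and 0.145). On the column total the log2 fold changes were -0.06 and -0.13, with FDRs of 0.703 and 0.344. There the groups overlapped for ENSRNOG00000016227 as well, at 61.1 to 74.9 CPM in LPAEx and 65.1 to 82.3 CPM in CONEx. Of the 36 fits that leave out 1 library, ENSRNOG00000005804 was called in 20 and ENSRNOG00000016227 in 31.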

How the data were processed

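mRNA was purified with polyT beads from the tissue samples and sequenced as paired-end reads. Quality control by the authors used FastQC, and trimming used cutadapt through Trim Galore. STAR aligned the reads to Rnor_5.0 and counted them by gene, and the authors deposited whole-number read counts per Ensembl ID without normalization. Tool versions and strand settings are not given in the sources used here, so reads of overlapping antisense genes cannot be told apart. Every column matched a sample label, and no libraries were identical.

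CPM used column totals. Within each tissue, edgeR 4.0.16 (R 4.3.3) fitted the 6 groups as a single factor, on genes kept by filterByExpr and with TMM factors, with Benjamini-Hochberg FDR over all genes. SE was the absolute log2 fold change divided by the square root of F, and 95% intervals used the normal quantile. Alternatives were DESeq2 1.42.0, limma 3.58.1 voom with quality weights, RLE, no filter, rat number as a block, other rule thresholds, and leaving out libraries. Scaling by totals, the covariate and removal of 3 or more named libraries were added after the data were seen. The fits and the rule were tested on simulated data. For the fits these were modelled on muscle, and apart from the genes changed on purpose the libraries had the same expected make-up. The choice of scale was therefore not tested by them. Python 3.11.15, numpy 2.4.6, pandas 2.3.3, scipy 1.17.1 and matplotlib 3.10.9 were used.

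The members and lists were chosen with earlier results of these data known. Genes named were the 5 lowest ratios, 3 on each side of each threshold, 3 lowest and 3 highest spreads, and, since no ID had a symbol, at most 2 further IDs that fell. Lists by symbol were not applied. Rats were housed individually. The paper adjusted its microbiome analysis for cohort grouping. The labels give no cohort or batch for a library, so none entered the fits, and p-values measure the spread between these rats.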

Additional observations from a re-analysis of the deposited data

Results flagged for a closer look

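A sample far from the others is found by chance in about 5% of groups of libraries. ENSRNOG00000004252 and ENSRNOG00000021206, tested here, were named for their wide spread between these same libraries. The count of groups therefore cannot be set against that share. Of 82 groups tested, 10 held such a sample. For the summed CPM of the 36 even genes, these were hippocampus LPAEx rat 4 at 4882 CPM (the others at most 4591), hippocampus LPSed rat 13 at 3835 CPM (the others at least 4280) and colon LPASed rat 5 at 6018 CPM (the others at most 4602).

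ENSRNOG00000004252 stood apart in 4 groups, each time upward: PFC CONSed rat 10 at 165.7 CPM (the others at most 43.1), hippocampus CONEx rat 12 at 154.4 CPM (at most 70.9), hippocampus LPEx rat 8 at 170.8 CPM (at most 46.9) and colon LPASed rat 5 at 106.0 CPM (at most 46.8). ENSRNOG00000021206 stood apart upward in liver LPAEx rat 12 at 204.9 CPM (the others at most 59.7) and downward in liver LPSed rat 8 at 31.2 CPM (the others at least 76.4). ENSRNOG00000019908 was high in PFC CONSed rat 3 at 140.3 CPM (the others at most 111.4). All of these values are on the column total.

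The liver libraries left out of the rule lay at median absolute distances of 0.43 for LPAEx rat 7 and 0.73 for LPEx rat 4 from the liver medians of the even genes (log2), against 0.0685 to 0.209 in CONSed livers. The highest liver library kept in the rule was LPAEx rat 11 at 0.30.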

How the results depend on the processing

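The number of even genes was 36. It was 64 with TMM and 87 with RLE between tissues, 12 and 181 with a ratio of at most 1.3 and 2, 89 and 10 with medians of at least 20 and 100 CPM, and 35 to 37 without any 1 library. For exercise in PFC, 9 members were lower and 0 higher. Voom called 16 (14 lower, 2 higher), the column total 1 lower and 7 higher, the fit without LPAEx rats 6 and 7 and CONEx rat 5 called 5 lower and 2 higher, the covariate 0, and fits without 1 library 6 (without LPEx rat 11) to 11 (without LPEx rat 3). ENSRNOG00000046502 turned to 0.0016 on the column total. Among the 6 groups in PFC, 1 member was called by edgeR, 6 by DESeq2, 5 by voom, and 0 with no filter, on the column total, with the covariate and without LPAEx rat 9 and CONSed rat 7. Fits without 1 library gave 0 to 4, with 4 without CONSed rat 8 or LPEx rat 3. DESeq2 called 2 members in muscle. With all 35 liver libraries, 1 member was called among the groups and 2 for LPAEx, and the fits without 1 liver library gave 0 to 1, the 1 without LPAEx rat 12. Causes were not tested.

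The labels repeat rat numbers across groups without pairing the rats. The median r of same-numbered libraries was -0.0013 in PFC, 0.021 in hippocampus, -0.0067 in liver, 0.083 in colon and 0.093 in muscle. In colon 22 of 49 such pairs and in muscle 23 of 49 had an r over 0.1, and the libraries most like one of their own number were 2 of 35, 3 of 35, 6 of 31, 12 of 35 and 7 of 35 in the same order of tissues. Pairs with different numbers had a median r of -0.013 in colon and -0.015 in muscle. The highest r of a same-numbered pair was 0.62 in colon and 0.39 in muscle. Same-numbered libraries were thus somewhat more alike in colon and muscle, and what they share was not tested. Not every pair passed 0.1 in any tissue, and the numbers were not used as pairs in the main fits. A shared effect need not bring every pair over 0.1, so this cutoff cannot decide whether there is one. Anything that same-numbered libraries share stayed in the spread of the main fits. With the number as a replicate block, 6 members were called for exercise in PFC, 0 among the 6 groups, and neither muscle gene (FDR = 0.225 for ENSRNOG00000005804 and 0.182 for ENSRNOG00000016227).

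Counting error at the lowest count of a member was 6.24%, below the spread between libraries. Comparisons of single groups rested on 4 to 6 libraries each.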
